A study of Mus musculus with 19 samples.

Results

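Remote accessible sites were defined as regions of open chromatin whose midpoint lay more than 100 kb from every end of a protein-coding gene. They were found in mouse forebrain cells profiled by ATAC-seq, an assay that cuts open chromatin with a transposase and reads the cut sites as peaks. Each of the 19 libraries was reduced to its 29112 best-scoring peak summits, the length of the shortest list. Summits at most 200 bp apart were chained into regions, and regions with such a matched summit in at least 2 libraries were kept. Of the 44878 regions, 8850 (19.7%) were remote. A further split gave 3174 regions inside long protein-coding genes, far from both ends of the host, and 5676 regions between protein-coding genes. The name "remote" therefore refers to gene ends and not to genes as a whole, and 417 remote regions (4.71%) lay within 1 kb of the end of a non-coding gene, 379 of them of a long non-coding RNA. Counting genes of every kind, 2250 remote regions (25.4%) were more than 100 kb from any annotated end.

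The cells were Prom1-positive forebrain progenitors, separated magnetically at embryonic day 14. Controls (n = 4) were Foxc1 wild type without the diet and RA-diet controls (n = 5) were Foxc1 wild type on a retinoic acid diet. Mutants (n = 4) carried Foxc1 hith/LacZ, a hypomorphic allele over a LacZ insertion allele, without the diet, and RA-diet mutants (n = 6) carried the same alleles on the retinoic acid diet. Foxc1 is known as a transcription factor of the meninges, the membranes around the brain. The series asks how meningeal retinoic acid acts on neurogenesis through Notch and Sox2. Strain, the start and dose of the diet, sex and preparation batch are not given in the sources used here, and neither is whether the libraries of a group came from separate embryos. The spread behind every p-value is only that between these libraries, which may be technical. Mutant 1 has a wild-type genotype label that goes against its title, and the title was used.

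Accessible sites far from genes are often enhancers, sequences that bind transcription factors and act on a promoter across a long loop of chromatin. Genes of developmental transcription factors tend to stand beside wide gene-free intervals filled with such sites. Many neuronal adhesion and synaptic genes are very long, so that a site in the middle of the gene can be distant from both of its ends. Long genes can also hold internal start sites, which are promoters rather than enhancers.

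Sequence was available for the subset of remote regions that fell on an annotated start. The RefSeq table for GRCm38.p6 holds 32851 promoter windows of 300 bases, from 250 before to 50 after a start, and the midpoint of 130 remote regions (1.47%) fell in one of these windows. Of these, 39 were internal starts of the protein-coding host gene and the others belonged to non-coding genes. The windows below are examples among the 56 that lay under a remote region with a matched summit in all 19 libraries. They were not chosen by summit score alone, as others of the 56, such as that of Lingo2, had better-scoring summits than Kcnq1ot1. Capitals mark the stretch between the lowest and the highest summit of any library, and each is written 5′ to 3′ in the direction of the gene. Gm26901 is a long non-coding RNA gene between Pcmtd1 and Sntg1 (chr1:7398047-7398346, minus strand). Gm29260 lies between Tmem182 and Pou3f3 (chr1:41742772-41743071, plus strand). The Specc1 window is an internal start of that gene (chr11:62076774-62077073, plus strand), and so is the Creb5 window (chr6:53573124-53573423, plus strand). Kcnq1ot1 is the imprinted antisense RNA of Kcnq1 (chr7:143296498-143296797, minus strand).
Gm26901: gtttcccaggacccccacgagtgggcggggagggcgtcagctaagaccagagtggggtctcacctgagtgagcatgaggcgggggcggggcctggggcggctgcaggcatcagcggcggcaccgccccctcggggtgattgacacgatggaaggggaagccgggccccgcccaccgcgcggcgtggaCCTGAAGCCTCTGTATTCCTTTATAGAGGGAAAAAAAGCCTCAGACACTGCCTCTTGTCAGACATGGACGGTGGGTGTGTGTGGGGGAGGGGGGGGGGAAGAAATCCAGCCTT
Gm29260: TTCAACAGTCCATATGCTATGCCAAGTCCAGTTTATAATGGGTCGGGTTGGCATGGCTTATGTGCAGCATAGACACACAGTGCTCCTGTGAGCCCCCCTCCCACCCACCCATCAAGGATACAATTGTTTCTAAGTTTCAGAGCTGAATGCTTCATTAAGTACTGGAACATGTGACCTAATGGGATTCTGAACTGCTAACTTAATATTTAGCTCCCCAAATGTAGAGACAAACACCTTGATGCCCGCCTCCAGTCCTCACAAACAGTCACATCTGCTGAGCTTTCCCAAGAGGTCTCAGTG
Specc1: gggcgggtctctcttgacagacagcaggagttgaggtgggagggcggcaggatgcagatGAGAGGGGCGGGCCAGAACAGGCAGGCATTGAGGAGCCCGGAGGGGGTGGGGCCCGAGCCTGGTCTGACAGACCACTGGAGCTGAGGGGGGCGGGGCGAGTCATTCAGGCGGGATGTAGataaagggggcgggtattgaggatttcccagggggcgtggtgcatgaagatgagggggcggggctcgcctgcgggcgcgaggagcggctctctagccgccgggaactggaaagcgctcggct
Creb5: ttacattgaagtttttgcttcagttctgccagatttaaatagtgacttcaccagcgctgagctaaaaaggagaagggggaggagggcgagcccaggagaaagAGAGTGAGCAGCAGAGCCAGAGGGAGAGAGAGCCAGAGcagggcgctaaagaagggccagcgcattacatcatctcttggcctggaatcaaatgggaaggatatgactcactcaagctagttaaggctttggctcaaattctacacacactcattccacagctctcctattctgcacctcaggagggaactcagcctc
Kcnq1ot1: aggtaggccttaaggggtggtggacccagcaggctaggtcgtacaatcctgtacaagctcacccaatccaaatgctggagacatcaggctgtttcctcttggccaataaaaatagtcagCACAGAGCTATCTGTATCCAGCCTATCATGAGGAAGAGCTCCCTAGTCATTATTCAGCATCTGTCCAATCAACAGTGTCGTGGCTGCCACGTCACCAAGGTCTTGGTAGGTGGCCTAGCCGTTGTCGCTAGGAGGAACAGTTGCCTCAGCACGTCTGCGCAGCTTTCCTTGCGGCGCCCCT

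In Gm29260 the summits spanned the whole window, while in Creb5 they spread over 38 bp. The Gm26901 and Specc1 windows were CpG-rich, with 18 and 20 CpG dinucleotides, and the Gm29260, Creb5 and Kcnq1ot1 windows held 2, 4 and 9. Among the 39 remote windows of protein-coding genes the median was 12 CpG, against 6 in the 91 windows of non-coding genes and 7 over all 32851 windows. The set of all windows mixes protein-coding and non-coding genes. It was not split by kind, here or for the motifs below, so the part of gene kind in these differences was not tested. Letters of 3 promoter motifs were searched on both strands. The TATA box TATAAA was in 6.15% of the 130 windows and 13.6% of all windows, the CCAAT box CCAAT in 41.5% and 37.4%, and the GC box GGGCGG in 25.4% and 35.7%. Matches of different motifs can share bases, and a match is a description of the letters only. Of the 130 regions, 56 (43.1%) had a matched summit in all 19 libraries, against 20% of all remote regions.

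Some remote regions lay at microRNA genes, whose mature products are known. Of 1005 microRNA hairpins in the RefSeq table, 11 had a remote region within 1 kb, and 6 of those 11 belonged to the Mir344 cluster on chromosome 7, in the gap between Gm51483 and Ndn. The cluster holds 13 hairpins over 402 kb. All 8 regions found between its first and last hairpin were remote, and 6 of them lay within 200 bp of a hairpin. The mature sequences below are shown because a shared seed, bases 2 to 8 in capitals, is the part of a microRNA that pairs with its targets. They are ordered by chromosome position, all on the minus strand.
miR-344c-3p: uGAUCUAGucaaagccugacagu
miR-344c-5p: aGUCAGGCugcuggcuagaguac
miR-344-3p: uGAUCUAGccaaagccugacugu
miR-344-5p: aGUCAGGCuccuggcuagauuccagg
miR-344g-3p: cAGGCUCUagccaggggcuuga
miR-344g-5p: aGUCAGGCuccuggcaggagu
miR-344f-3p: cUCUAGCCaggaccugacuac
miR-344f-5p: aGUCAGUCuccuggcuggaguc
miR-344i: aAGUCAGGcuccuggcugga

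The 3p arms of miR-344c and miR-344 carried the same seed, GAUCUAG, and the 5p arms of miR-344c, miR-344 and miR-344g shared GUCAGGC. miR-344g-3p, miR-344f-3p, miR-344f-5p and miR-344i each had a seed of their own here. The regions at Mir344c, Mir344, Mir344-2 and Mir344f had a matched summit in all 19 libraries, with mean ranks of 15234, 11491, 14907 and 17228 (rank 1 is the best-scoring summit of a library). The Mir344i region was matched in 17 libraries, 4 of 4 controls, 4 of 4 mutants, 5 of 5 RA-diet controls and 4 of 6 RA-diet mutants. The Mir344g region was matched in 12, with 4 of 4 controls, 2 of 4 mutants, 4 of 5 RA-diet controls and 2 of 6 RA-diet mutants. Members of the cluster are near-identical copies, and Mir344 and Mir344-2 give the same mature sequence, so reads may have been split among them and each count is uncertain. The remaining hairpins were Mir125b-1 (17 libraries), Mir802 (19), Mir6368 in the gap beside Sox4 (19), Mir6391 (9) and Mir7214 (4).

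The libraries differed in depth as far as the files show it, with 29112 to 122591 deposited summits each. Read counts were not used here. Gene-end summits within 1 kb were present in all 19 libraries for 5 of 7 radial glia markers (Sox2, Fabp7, Hes5, Vim and Slc1a3), with Prom1 in 13 and Pax6 in 1, and for the neuronal markers Tubb3 and Neurod6 and the intermediate progenitor marker Btg2. Of the other cell types, Cldn5, Pecam1, Lum, Cx3cr1, Csf1r, Hba-a1 and Hbb-bt had 0 libraries with such a summit, while Kdr had 19, Col1a1 18, Dcn 11, Col1a2 3 and P2ry12 1. The part of other cells in the results below was not tested. In a bulk profile, a change in the share of a cell type and a change within its cells cannot be told apart.

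Remote sites were thinly spread over a wide territory. The intervals more than 100 kb from a gene end made up 37.0% of the span from the first to the last gene of each chromosome, and held 8.88 regions per Mb against 21.3 in the remainder. Density was 15.001 regions per Mb inside long genes and 7.23 between genes. The median distance of a remote region from its nearest gene end was 207 kb, and the farthest stood 2.24 Mb away. There were 1101 regions beyond 500 kb, of which 940 lay between genes, and 219 beyond 1 Mb. A remote region had its nearest neighbouring region at a median of 19.3 kb, against 11.5 kb for the others, and 14.5% had none within 100 kb against 2.49%. Chromosome 16 had the highest remote share of its regions, 26.7%, and among the autosomes chromosome 19 the lowest, 12.5%. Just inside the limit the nearest regions stood at 100009, 100010 and 100020 bp (3, 8 and 3 libraries), and just outside it at 99949, 99881 and 99834 bp (13, 18 and 10 libraries).

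Remote sites were occupied in fewer libraries than sites at gene ends, while the difference from other distal sites did not pass the test. A matched summit of all 19 libraries was found in 1769 of the 8850 remote regions (20%), in 20% of regions 10 to 100 kb from an end, 21.4% at 1 to 10 kb and 53.7% within 1 kb. It was 19.7% inside genes and 20.2% between genes. The share was 19.8% at 100 to 200 kb, 21.1% at 200 to 500 kb, 17.1% from 500 kb to 1 Mb and 16.4% beyond 1 Mb. Per library, a matched summit was present in 56.9% ± 5.57 of the remote regions (SD, n = 19). The difference from regions 10 to 100 kb away was -0.82 percentage points ± 5.14 (SD, n = 19), lower in 11 of 19 libraries, ranged from -8.57 to 8.66, and did not pass a two-sided exact sign-flip permutation test (p = 0.489). Mutant 1, control 2 and RA-diet mutant 6 were lowest, at -8.57, -8.30 and -8.12 points, and mutants 3 and 4 highest, at 8.27 and 8.66, so libraries of the same group stood at both extremes. Against regions within 1 kb the difference was -22.0 points ± 8.61 (SD, n = 19), lower in 19 of 19 libraries (two-sided exact sign-flip permutation p = 3.81e-06, the smallest that 19 libraries can give). The SD between libraries was 3.69 points within 1 kb, 4.43 at 1 to 10 kb and 3.25 at 10 to 100 kb, and 4.62, 5.94, 8.44 and 10.03 points in the 4 successive remote classes. The farthest classes hold the fewest regions, 882 from 500 kb to 1 Mb and 219 beyond 1 Mb, and the spread was not tested. Beyond 1 Mb, occupancy ran from 29.2% in RA-diet mutant 6 to 69.9% in mutant 4.

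**Figure D1:**
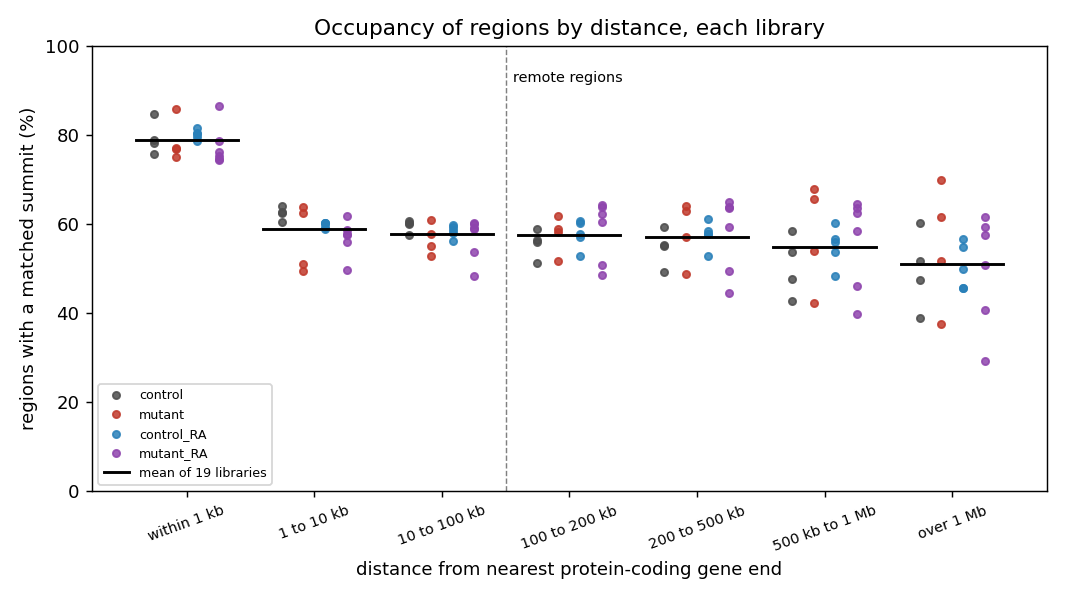
Percentage of regions with a matched summit in each of the 19 libraries (points, coloured by group) against the distance class of the region from the nearest protein-coding gene end; black lines are means of the 19 libraries. The means fall from 78.9% within 1 kb to 57.7% at 10 to 100 kb, stay near that level to 500 kb, and the points spread widely beyond 1 Mb (29.2% to 69.9%).

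The strongest remote sites between genes, by mean rank over the libraries, stood in the gaps Prkd1/G2e3, Dph6/BC052040, Tmem161b/Ccnh, Eipr1/Myt1l and Nrsn1/Hdgfl1. The first, at chr12:51118189-51118468 and 230 kb from G2e3, had a mean rank of 303. Its rank was 532, 197, 124 and 220 in controls, 474, 74, 565 and 165 in mutants, 575, 104, 113, 207 and 534 in RA-diet controls, and 87 to 1239 with a median of 138 in RA-diet mutants. It was thus among the best 1239 summits of every library, and the groups overlapped. In the Tmem161b/Ccnh gap the summits of all 19 libraries fell on 2 adjacent bases (chr13:84449393-84449394, mean rank 592). The Dph6/BC052040 site (chr2:115132348-115132469) had a mean rank of 412, the site 236 kb from Myt1l, which encodes a neuronal zinc finger transcription factor, 615 (chr12:29291090-29291201), and the Nrsn1/Hdgfl1 site 639 (chr13:26155136-26155181).

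Inside genes the strongest sites were in Gpc5, a glypican gene (chr14:115779474-115779581, 687 kb from the nearer end, mean rank 887), St7 (chr6:17797411-17797650, 1052), Specc1 (chr11:62076833-62076951, 1173, the internal start shown above), Magi1, which encodes a junction scaffold protein (chr6:93912693-93912928, 1268), and Slc14a2 (1359). The Gpc5 site ranked 477, 2062, 275 and 555 in controls, 2250, 400, 178 and 111 in mutants, 1532, 472, 584, 465 and 668 in RA-diet controls, and 228 to 4479 with a median of 288 in RA-diet mutants. Control 2, mutant 1, RA-diet control 1 and RA-diet mutant 6 had its weakest ranks.

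At the ends of non-coding genes, the strongest site in all libraries was at Gm26901, 7 bp from its end, with a mean rank of 1079. It was followed by sites at 4933433G08Rik (2285), 9330188P03Rik (2338), Gm41734 (2373), Gm34345 (2426), the transfer RNA gene n-TEttc7 (2470), Gm35822 (2947), Gm29260 (3347), Gm28175 (3786) and Gm36794 (3978). Gm29260 and Gm28175 both lie in the gap beside Pou3f3, and Gm36794 in the gap beside Mn1. Of the 417 remote regions within 1 kb of a non-coding gene end, 113 (27.1%) were matched in all 19 libraries.

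The genes hosting the most remote sites included many long neural genes. Of 990 protein-coding genes longer than 200 kb, the length a gene needs to hold any, 646 hosted at least 1. Auts2, a regulator of neuronal development, led with 43 regions over 1.11 Mb, 14 of them matched in all libraries. It was followed by the adaptor gene of reelin signalling Dab1 (30 regions, 3 in all libraries), the teneurin genes Tenm3 (30, 4), Tenm4 (28, 6) and Tenm2 (27, 2), the adhesion gene Opcml (28, 4), the transcription factor gene Sox5 (28, 9), Macrod2 (27, 2), the axon guidance receptor gene Robo2 (26, 5), the adhesion gene Lsamp (23, 6), and the transcription factor genes Zfhx3 (23, 2) and Nfia (21, 8). These 12 genes held 334 regions, 10.5% of those inside genes. They were ordered by number and not by density, and ran from 0.541 Mb (Nfia) to 2.20 Mb (Lsamp) in length. The part of gene length in this order was not tested. In Auts2, 29, 25, 27 and 24 regions were occupied in controls, 28, 27, 26 and 34 in mutants, 24, 28, 29, 27 and 28 in RA-diet controls, and 26 to 30 in RA-diet mutants. Those ranges overlapped.

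Several of the gaps with the most remote sites stood beside transcription factor genes. Gaps were ordered by number and not by density, and the 12 fullest ran from 0.789 Mb (Mn1/Cryba4) to 4.51 Mb (Celf4/Pik3c3) in length. The gap Tmem182/Pou3f3 held 47 over 1.84 Mb, 12 of them in all libraries. Pou3f3 and Pou3f2 encode POU-domain factors of cortical progenitors and upper-layer neurons, and the gap Pou3f2/Mms22l held 36 (8 in all libraries). Gaps beside other listed transcription factor genes were Bcl11a/Fancl (39, 5) and Nr2f1/Arrdc3 (32, 9). The others of the 12 fullest were Tenm2/Mat2b (42, 3), Zfp608/Gramd3 (42, 14), Celf4/Pik3c3 (41, 7), Mn1/Cryba4 (41, 17), Usp25/Cxadr (41, 8), Slc10a2/Efnb2 (36, 6), Slc4a3/Epha4 (36, 10) and Csnk1g3/Zfp608 (32, 7). The gaps Tmpo/Nedd1 (32, 8) and Zeb2/Acvr2a (32, 5) tied with the last of these in number and fell outside the 12 by alphabetical order. The regions of the Pou3f3 gap stretched from 155 kb to 1728 kb from that gene, with 23 beyond 1 Mb. These distances are to Pou3f3 and not to the nearest gene. In this gap of 1.84 Mb, the regions farthest from Pou3f3 were nearer to Tmem182. In controls 30, 25, 30 and 28 of the 47 were occupied, in mutants 26, 31, 34 and 38, in RA-diet controls 28, 31, 27, 34 and 29, and in RA-diet mutants 26 to 36. The groups overlapped, and mutants 3 and 4 were at the upper end, as they were for Tenm3 (24 and 23 of 30, against 10 to 13 in controls) and Bcl11a/Fancl (31 and 27 of 39, against 13 to 19 in controls).

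**Figure D2:**
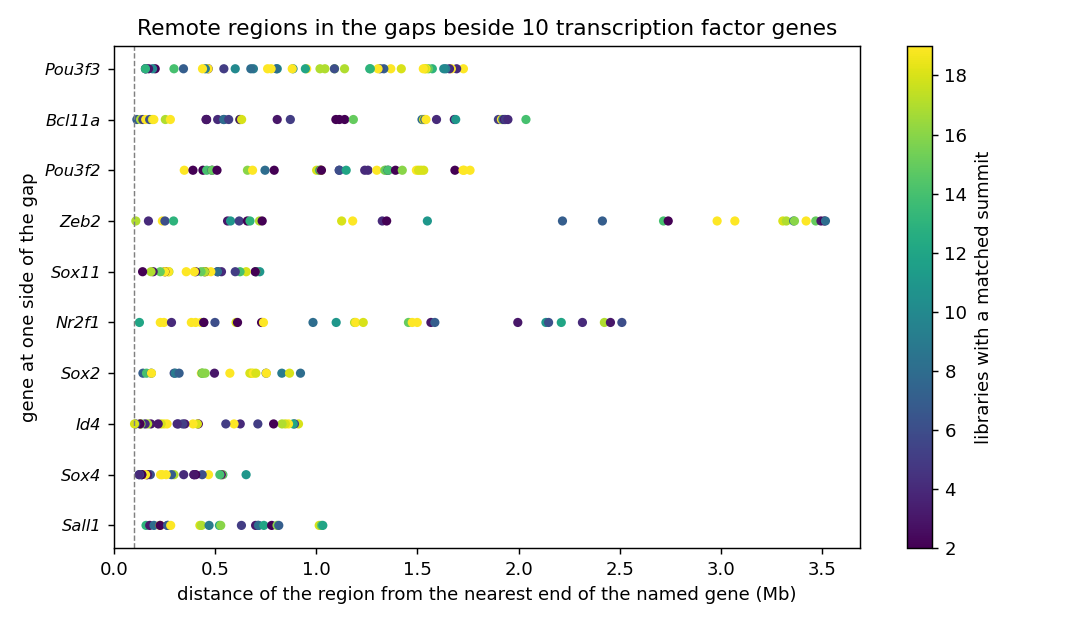
Remote regions (points) in 1 gap beside each of 10 transcription factor genes, placed by distance from the nearest end of the named gene in Mb and coloured by the number of libraries with a matched summit; the dashed line is the 100 kb limit. Distances are to the named gene, and points far along a gap can be nearer to the gene at its other side. Regions matched in all 19 libraries (yellow) lie at many distances, for example 12 of 47 beside Pou3f3, 9 of 32 beside Nr2f1 and 5 of 22 beside Sox2.

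Of 60 forebrain transcription factor genes listed by function, 45 (75.0%) hosted or flanked a remote site, against 9.73% of all 21887 protein-coding genes. Under the distance rule only a gene longer than 200 kb, or beside a gap wider than 200 kb, can be counted. The part of gene length and gap width in this share was not tested, and the same limit applies to the lists below. They had 803 regions in or beside them, 174 of them in all libraries (21.7%). Sox2, the stem cell factor named in the series title, flanked 35 regions, 10 of them in all libraries. In the gap Sox2/Atp11b, 18, 14, 18 and 16 of the 22 regions were occupied in controls, 15, 18, 14 and 16 in mutants, 16, 17, 15, 14 and 17 in RA-diet controls and 11 to 17 in RA-diet mutants. Mean occupancy there was 16.5 ± 1.91 in controls, 15.8 ± 1.71 in mutants, 15.8 ± 1.304 in RA-diet controls and 13.5 ± 2.17 in RA-diet mutants (SD, n = 4, 4, 5 and 6), with overlap between all groups. Sox11 flanked 39, Id4 30 and Zeb2 32, whereas Emx1, Lhx2, Tbr1, Fezf2, Neurog2 and Neurod2, named after their values were seen, hosted or flanked none. The list of long adhesion and synaptic genes (66 of 68) was chosen for gene length, so its share follows from the rule.

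Of 26 Notch pathway genes, 7 (26.9%) hosted or flanked a remote site. The ligand genes Jag1 and Dll1 flanked 10 and 3 regions. The target genes Hes1 and Hey2 flanked 10 and 3, the coactivator genes Maml2 and Maml3 hosted 3 and 5, and the DNA-binding factor gene Rbpj flanked 1. Notch1, Notch2 and Hes5 had none. In the gap Opa1/Hes1, 7, 7, 5 and 6 of the 10 regions were occupied in controls and 6, 6, 6 and 7 in mutants. Retinoic acid signalling genes had 3 of 22 (13.6%): the receptor gene Rarb with 3 regions, the corepressor gene Nrip1 with 4 and the degrading-enzyme gene Cyp26b1 with 2. Of the cell type lists, radial glia had 8 of 19, endothelial 4 of 13, meningeal fibroblast 7 of 14 and microglia 1 of 9. The median number of regions per listed gene was 7 for forebrain transcription factors and 0 for Notch, retinoic acid and radial glia genes, as over all genes.

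The number of remote sites per library did not differ by test between any of the groups. Controls had 4831, 4355, 5232 and 4907 occupied remote regions, a mean of 4831 ± 362 (SD, n = 4). Mutants had 4355, 5056, 5600 and 5432, a mean of 5111 ± 553 (SD, n = 4). RA-diet controls had 4613, 5048, 5210, 5370 and 5064, a mean of 5061 ± 282 (SD, n = 5). RA-diet mutants ran from 4030 to 5702 (median 5408), a mean of 5093 ± 712 (SD, n = 6). All groups overlapped, and RA-diet mutants 4 and 6, whose deposited lists were the shortest of that group (29112 and 48323 summits), were its lowest, at 4380 and 4030. Among mutants the order differed: mutant 4, with 49804 deposited summits, had 5432, and mutant 1, with 108298, had 4355. Two-sided exact permutation tests in 7 contrasts, each for all remote regions and for both classes, gave p = 0.246 to 0.962 (adjusted p = 0.962 for each of the 21 tests). The largest mean difference was 279.5 regions, mutants above controls (exact permutation p = 0.429). Leaving out 1 library gave 116 to 531, the highest without mutant 1, the library with the conflicting genotype label (exact permutation p = 0.114, adjusted p = 0.8). It was -18.1 for mutants on against off the diet and 31.7 for RA-diet mutants against RA-diet controls, and the sign of both turned under several alternatives given below. Inside genes the means were 1731 ± 108, 1809 ± 161, 1818 ± 97.0 and 1830 ± 233 in controls, mutants, RA-diet controls and RA-diet mutants, and between genes 3100 ± 255, 3302 ± 391.7, 3243 ± 187 and 3263 ± 480.

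**Figure D3:**
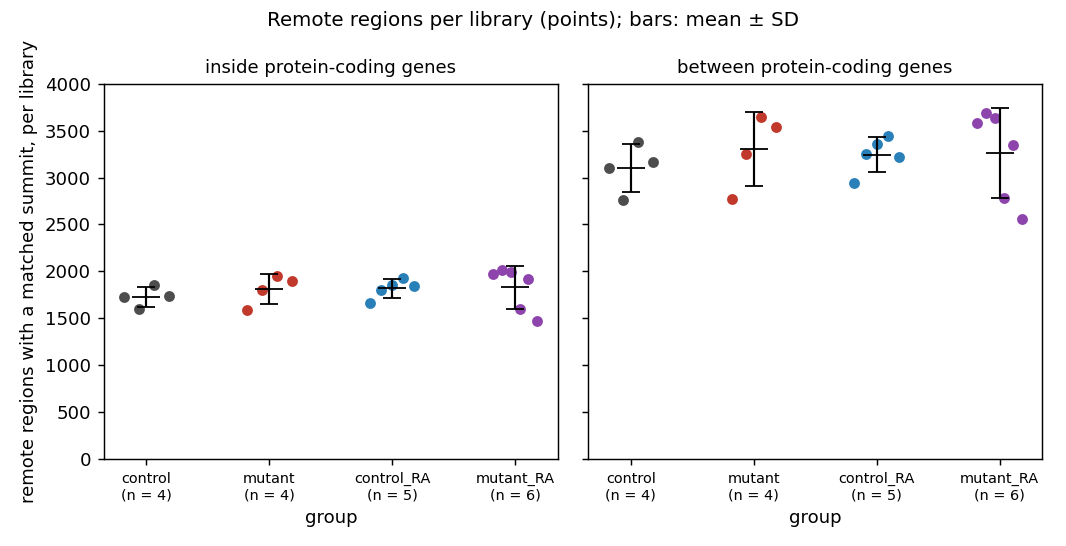
Number of remote regions with a matched summit in each library (points) by group, inside protein-coding genes (left) and between them (right); bars give mean ± SD for n = 4, 4, 5 and 6. The groups overlap in both classes, from 1471 to 2019 inside genes and from 2559 to 3683 between genes.

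Without matching of list length, the remote share of all deposited summits was 23.3% ± 1.65 in controls, 23.8% ± 1.10 in mutants, 22.4% ± 0.751 in RA-diet controls and 21.5% ± 3.44 in RA-diet mutants (SD, n = 4, 4, 5 and 6). Two-sided exact permutation tests gave p = 0.121 to 0.765 over the 7 contrasts (lowest adjusted p = 0.642). The lowest shares were 17.0% and 18.02%, in RA-diet mutants 6 and 4. These are again the libraries with the shortest lists of that group, while mutant 4, with 49804 summits, had 23.0%. The part of depth in this share was not tested.

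Region by region, 0 remote sites passed in any contrast, as was the case over all 44878 regions (0% called; Fisher's exact test, or, for the pooled contrasts, its stratified form, Benjamini-Hochberg adjusted p of at least 0.779). At an unadjusted p under 0.05 there were 16 remote regions for mutants against controls (0.181%, against 0.152% of all regions), 325 for controls on against off the diet (3.67% against 2.62%), 124 for mutants on against off the diet (1.40% against 1.21%), 28 for RA-diet mutants against RA-diet controls (0.316% against 0.305%) and 307 for RA-diet mutants against controls (3.47% against 2.75%). With 4 against 4 libraries the smallest possible p was 0.0286, and 25645 fully separated regions would have been needed for a call, so these tests between 2 groups could not single out a few sites. The stratified tests could have called as few as 28 (genotype) or 34 (diet) fully separated regions. Pooled over both genotypes, the diet had 292 remote regions higher (3.30%, against 1.97% of all regions) and 224 lower (2.53% against 2.18%) at an unadjusted p under 0.05. Pooled over both diets, the mutation had 95 higher (1.07% against 0.608%) and 71 lower (0.802% against 1.07%). With all deposited summits these 4 counts became 60, 2925, 48 and 540, so the balance of higher and lower depended on matching the lists. Leaving out 1 library moved the diet counts to between 174 (without control 4) and 413 (without RA-diet mutant 6) higher and between 132 (without mutant 2) and 304 (without control 2) lower. It moved the genotype counts to between 40 (without RA-diet mutant 2) and 168 (without mutant 1 or mutant 2) higher and between 39 (without RA-diet mutant 4) and 110 (without mutant 2) lower.

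The smallest p of the diet contrast among remote sites belonged to a site between Rngtt and Cnr1, the cannabinoid receptor gene (chr4:33731870-33732022), and a site in Fhit (chr14:9788599-9788782). Both were occupied in 0 of 4 controls, 0 of 4 mutants, 4 of 5 RA-diet controls and 6 of 6 RA-diet mutants (stratified exact p = 1.89e-04, adjusted p = 0.779). Where matched, the Cnr1 site ranked 18764 to 28351 and the Fhit site 19512 to 24950, in the lower part of the matched range. At the Cnr1 site, weaker summits were deposited at ranks 41349, 46654 and 41100 in controls 2 to 4 and 44756 and 38248 in mutants 1 and 2. Control 1, mutants 3 and 4 and RA-diet control 1 had no deposited summit there. Below the matched list, the Fhit site had deposited summits at ranks 35010, 34165, 34708 and 40252 in controls, 35260, 38007 and 53861 in mutants 1 to 3 and 31625 in RA-diet control 1, and mutant 4 had none. Over the 10 remote regions of Fhit together, 6, 4, 4 and 5 were occupied in controls, 2, 5, 4 and 6 in mutants, 6, 9, 8, 6 and 7 in RA-diet controls and 9, 8, 8, 5, 7 and 6 in RA-diet mutants. That was the smallest p of the diet contrast among 647 host genes and gaps with at least 5 remote regions (difference 2.69, stratified exact permutation p = 0.00121, adjusted p = 0.275). For genotype it was Nckap5, with 14, 12, 14 and 12 of 18 regions in controls, 10, 10, 9 and 11 in mutants, 14, 10, 14, 15 and 15 in RA-diet controls and 13, 9, 12, 6, 12 and 8 in RA-diet mutants (difference -3.35, exact permutation p = 0.00288, adjusted p = 0.978). In this test per locus, added after the data had been seen, 0 loci passed in any of the 7 contrasts, with 2 to 68 at an unadjusted p under 0.05.

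Few sites separated a pair of groups completely. A matched summit in every RA-diet control and in no control was found at 38 remote regions (0.429%, against 0.223% of all regions), and the reverse at 11 (0.124% against 0.178%). Between mutants and controls the counts were 7 in every mutant and no control (0.0791% against 0.0513%) and 9 the other way (0.102% against 0.1%). At 7 a summit was in every RA-diet mutant and no mutant (0.0791% against 0.0535%), and 4 were in every mutant and no RA-diet mutant (0.0452% against 0.0668%). Between RA-diet mutants and RA-diet controls there was 1 in the mutants (0.0113% against 0.00891%) and 0 in the controls (0% against 0.00891%). At 21 it was in every RA-diet mutant and no control (0.237% against 0.123%), and at 18 in every control and no RA-diet mutant (0.203% against 0.267%). These are counts without a test, and the comparisons share groups of libraries. With all deposited summits in place of the best 29112, the 38 and 11 became 9 and 86, and the 21 and 18 became 4 and 275. The 7 and 4 of mutants on against off the diet became 2 and 98, the 1 and 0 of RA-diet mutants against RA-diet controls 2 and 7, and the 7 and 9 of mutants against controls 15 and 14. Leaving out 1 library changed the counts, reaching 93 for the 38 without control 1, 39 for the 11 without control 2, 127 for the 21 without RA-diet mutant 6 and 55 for the 18 without control 2. For mutants on against off the diet, the 7 reached 30 without RA-diet mutant 6 and the 4 reached 18 without mutant 3, and between RA-diet mutants and RA-diet controls the 1 reached 6 without RA-diet mutant 6 and the 0 reached 4 without RA-diet mutant 3. Without mutant 1, the 7 and 9 of mutants against controls became 24 and 15, and they were highest, 34 and 51, without mutant 2.

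**Figure D4:**
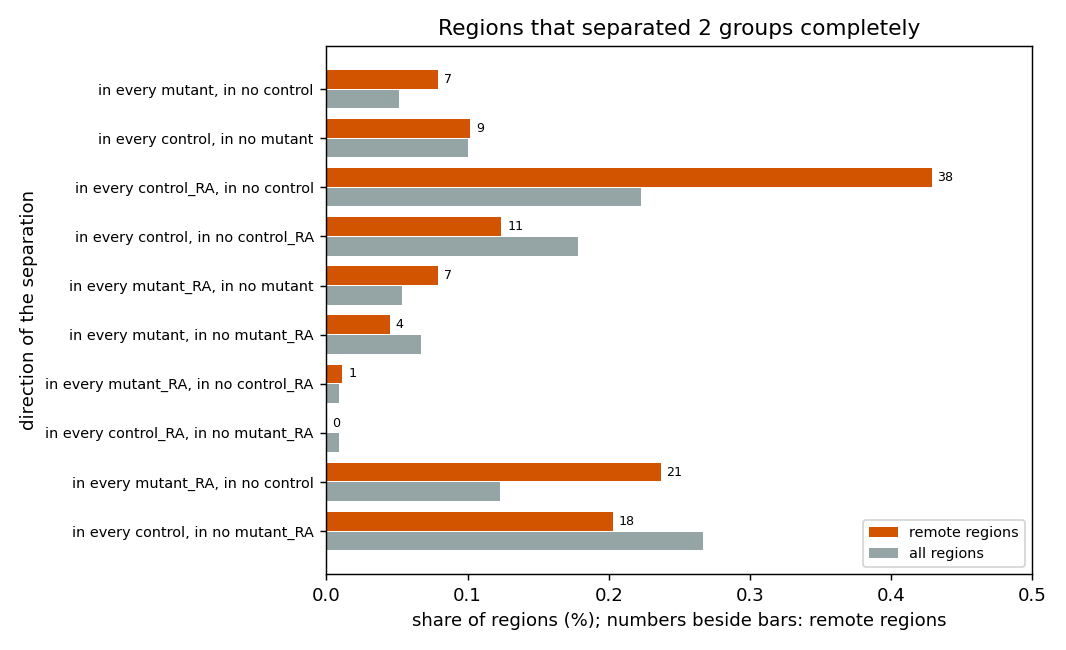
Share of regions, in percent, with a matched summit in every library of 1 group and in none of another, for remote regions (orange, with their number) and for all regions (grey), by direction of the separation. The longest bar is that of sites in every RA-diet control and in no control, 38 remote regions or 0.429%, against 0.223% of all regions.

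Many of the sites were deposited at a lower rank where they were missing from the matched list. Of the 152 combinations of a missing control and one of the 38 regions, 82.2% had a deposited summit in the region below the matched list, and in 99.3% the library had some deposited summit within 1 kb. For the 11 regions of the other direction the values were 61.8% and 87.3%. For the 4 sites of mutants missing in RA-diet mutants they were 12.5% and 41.7%. RA-diet mutant 4 deposited only the 29112 summits of its matched list, so it could hold no weaker one. Deposited lists averaged 63769 summits in RA-diet mutants and 98555 in controls, which limits the comparison of these shares. In the remaining directions with such regions, 39.8% to 100% had a weaker summit. Across all remote regions, 41.6% of missing combinations had a weaker summit, the same as at 10 to 100 kb (41.6%), against 29.9% within 1 kb. In the groups that did not define them, the 38 regions were occupied at 10.5%, 23.7%, 78.9% and 73.7% in mutants and at 13.2% to 97.4%, with a median of 88.2%, in RA-diet mutants. Mutants 3 and 4 were high and mutants 1 and 2 low, and the low value on the diet was that of RA-diet mutant 6.

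Named by their occupancy in the other groups, the sites of the 38 were those between Ackr3 and Cops8 (chr1:90317903-90318149) and in Arhgap24 (chr5:102727161-102727318), both in 0 of 4 mutants and 4 of 6 RA-diet mutants, and in Pard3b (chr1:62518794-62518985) and Smyd3 (chr1:179073317-179073466), both in 1 of 4 and 5 of 6. Ackr3 encodes a chemokine receptor, Arhgap24 a GTPase-activating protein and Pard3b a polarity protein. The Ackr3 site ranked 27883, 26995, 23530, 20012 and 18805 in RA-diet controls, and its deposited summits ranked 35237, 43502, 30899 and 42006 in controls and 41135, 41653, 30738 and 40405 in mutants. All 8 libraries off the diet thus held a deposited summit at this site. That their ranks lay below those of the RA-diet controls follows from how the site was chosen. Of the 11 sites in every control and no RA-diet control, those named were between Kcnn2 and Trim36, between Plpp3 and Usp24 (chr4:105335957-105336034), in Magi1 (chr6:94122924-94123137) and in Arhgef28 (chr13:98031483-98031519).

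Present in every mutant and no control were sites beside Sox4 (chr13:28512707-28512827), beside Mn1 (chr5:111681497-111681549), between Saraf and Dusp4 (chr8:34372653-34372775) and in Spata16 (chr3:26850894-26851358). The site in the gap beside Sox4, the gene of a neurogenic transcription factor, was 361 kb from Prl5a1, the nearer flanking gene. It ranked 21530, 21676, 13845 and 20515 in mutants and had deposited summits at 37384, 38890, 30583 and 30212 in controls. It was matched in 1 of 5 RA-diet controls and 1 of 6 RA-diet mutants. At the site beside Mn1 the controls had deposited summits at ranks 29922, 30307, 29578 and 29427, just below the last matched rank of 29112, against 28952, 20940, 21852 and 14409 in mutants. Present in every control and no mutant were sites in Dpp10, a potassium channel partner gene (chr1:124045818-124046055), Ptprd (chr4:76324674-76324758) and Adarb2 (chr13:8597757-8597858), and between Msr1 and Fgf20 (chr8:39950356-39950385). The Dpp10 site ranked 27187, 25730, 26678 and 28065 in controls, near the end of the matched list, and 30397, 32062 and 36185 in mutants 1, 2 and 4, with no summit in mutant 3. On the diet it was matched in 5 of 5 controls and 3 of 6 mutants.

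For mutants on against off the diet, the sites named were that of Cnr1, that of Fhit, and sites in Pard3b (chr1:62429826-62430022) and Dab1 (chr4:104270307-104270364) with the diet, and in Adamtsl1 (chr4:85801971-85802027), between Cntnap5b and Cdh20 (chr1:100878198-100878344), between Slc4a3 and Epha4 (chr1:75680589-75680675) and between P3h2 and Cldn1 (chr16:26234306-26234367) without it. The 1 remote site in every RA-diet mutant and no RA-diet control stood between Clec14a and Sec23a (chr12:58512689-58512836), occupied in 2 of 4 controls and 3 of 4 mutants. Between RA-diet mutants and controls, the separated sites named were those between Pja2 and Man2a1 (chr17:64480708-64480966), between Kcnh7 and Fign (chr2:63853317-63853494), in the Bcl11a/Fancl gap (chr11:26096178-26096357) and in Enox1 (chr14:77564032-77564169), present in the mutants, and between Serpinb8 and Cdh7 (chr1:108181552-108181639), between Msr1 and Fgf20, between Foxo1 and Cog6 (chr3:52784692-52784710) and between Irx3 and Irx5 (chr8:92161127-92161246), present in the controls.

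The Dab1 site was within the best 12673 summits of each library that had it, and the other libraries had no weaker summit there. It ranked 8254 and 12507 in controls 1 and 2, 12048, 7777, 6945, 10006 and 9250 in RA-diet controls, and 5750 to 12673 with a median of 9529 in RA-diet mutants, 475 kb from the nearest end of the gene. Controls 3 and 4 and all 4 mutants had no deposited summit there at any rank. A neighbouring region 642 bp away (chr4:104269523-104269665) had a summit in those 6 libraries, at ranks 14063 and 18926 in controls 3 and 4 and 23473, 13308, 13008 and 7814 in mutants, and in 1 more, RA-diet mutant 6 (18102). Thus 12 libraries had only the first summit, 6 only the second and 1 had both. The stratified exact test of the diet gave p = 7.94e-04 for the first (adjusted p = 0.779). The first site was named for its occupancy in these same libraries, so a small unadjusted p follows from how it was chosen.

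Similar exchanges of position stood at 4 more of the named sites, noticed after their values had been seen. In Pard3b, 12 libraries had only the summit of the named region, 6 only that of a region 261 bp away (chr1:62429517-62429565), and 1 had both. The 6 were controls 1, 3 and 4, mutants 2 and 3 and RA-diet control 1, and in mutant 4 both were deposited, the named summit at rank 46336 and the neighbouring summit at rank 19774. Between Serpinb8 and Cdh7 the second region was 289 bp away (chr1:108181928-108182052), in Adarb2 272 bp (chr13:8597419-8597485) and in Ptprd 237 bp (chr4:76324995-76325198). At the Cdh7 locus 10 libraries had only the named summit and 8 only the neighbour, in Adarb2 11 and 6, and in Ptprd 14 and 5, and 0 libraries had both at any of these loci. Neither summit was deposited in 1 library at the Cdh7 locus and in 2 at Adarb2. Chained at 500 bp in place of 200 bp, each of these 4 pairs forms 1 region, so these separations depend on the chaining distance. In that setting the 9 sites of every control and no mutant became 7. The 7 of every RA-diet mutant and no mutant became 6, and the 18 of every control and no RA-diet mutant stayed 18.

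**Figure D5:**
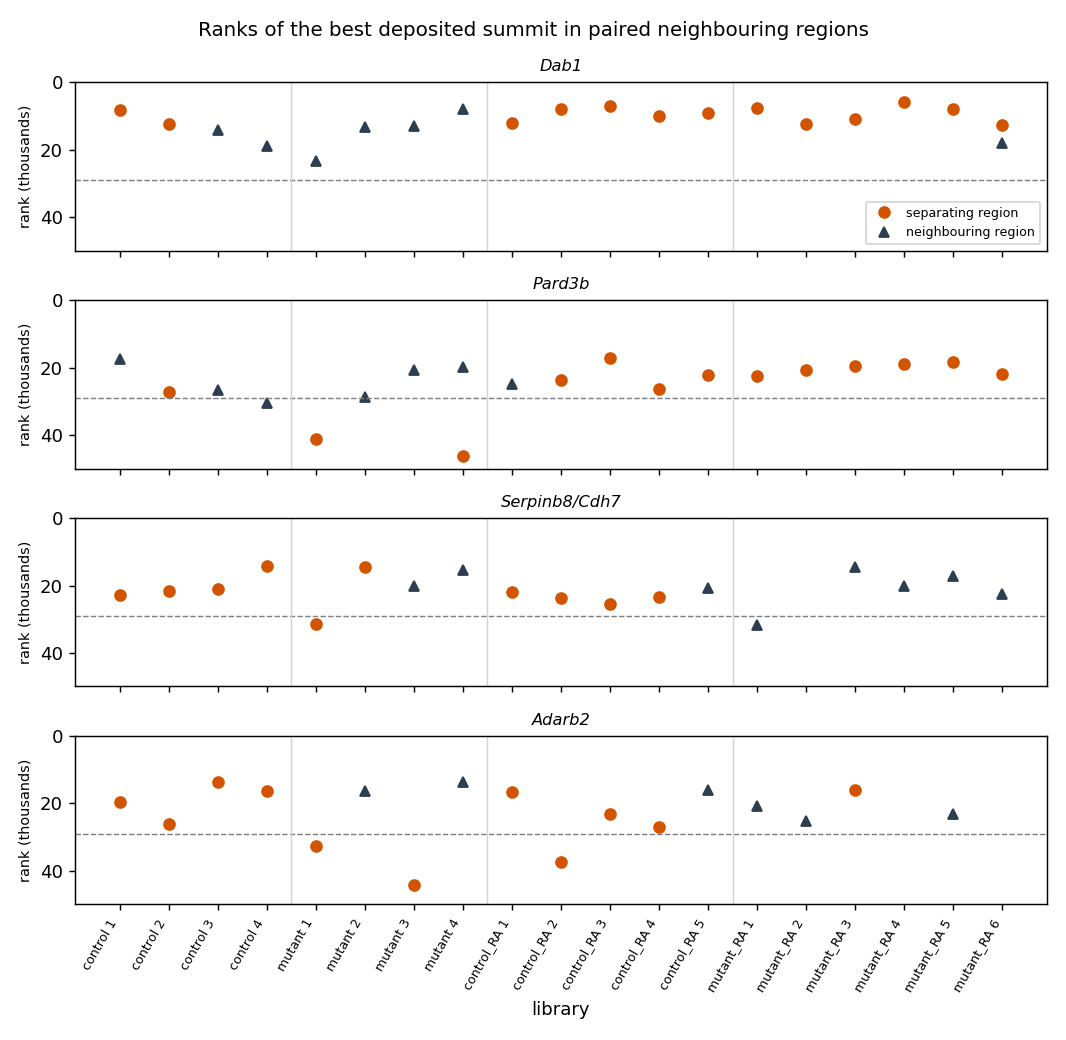
Rank of the best deposited summit, with rank 1 at the top and an axis in units of 1000, in each of the 19 libraries for a separating remote region (circles) and its neighbouring region (triangles) at 4 loci; libraries are grouped by vertical lines, a missing symbol means no deposited summit in the plotted range, and the dashed line is the length of the matched list, 29112. In Dab1 the 6 libraries that lack the circle are controls 3 and 4 and the 4 mutants, and each of them has the triangle.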

How the data were processed

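ATAC-seq summit lists of 19 libraries were used. Reads were aligned with BWA and peaks called with MACS2, per the submitters' processing notes, which also name Signac and DiffBind, no versions, and the build mm10 (GRCm38). Each deposited list holds the summits of 1 library, with the −log10 q of the peak as the authors' score (smallest near 1.30, per the labels' and files' values). Read counts were not used, so depth is known only as 29112 to 122591 summits a library, and no counting interval is given. The 29112 best summits of each library on chromosomes 1 to 19, X and Y were chained at 200 bp, and regions of at least 2 libraries were kept. Distances were measured from the midpoint to RefSeq gene ends (GRCm38.p6, without strand), and sequences come from RefSeq tables of that build. Other sequence was not used here.

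Presence was compared per region with Fisher's exact test, stratified for the pooled contrasts,, adjusted by the Benjamini-Hochberg method over all 44878 regions, and counts per library with exact permutation tests (Python 3.11.15, SciPy 1.17.1, NumPy 2.4.6, pandas 2.3.3). The tests were tested on simulated data. Named sites were the 5 strongest of each class in all libraries, the 12 fullest host genes and gaps, list genes, up to 10 non-coding ends, and up to 4 separated sites per direction with the largest difference in the same direction in the other 2 groups. The members and lists were chosen with earlier results of these data known. Alternatives were the list of summits, chaining, number of libraries, distance, gene set, leaving out each library, and a replicate block. The alternatives for the separated counts and for the counts at unadjusted p, and the test per locus, were added after seeing the data.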

Additional observations from a re-analysis of the deposited data

How the results depend on the processing

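With regions within 1 kb as the reference in place of those at 10 to 100 kb, the occupancy difference passed the test, at -22.0 points. In the 21 other alternatives it did not pass, and its direction was kept. Of 170 alternative values for the remote regions per library, 141 kept their direction and side of the threshold and 29 turned sign, and the lowest adjusted p among them was 0.25. With all deposited summits the differences were -1243 (mutants against controls), -5170 (controls on against off the diet), -7112 (mutants on against off the diet, the sign kept), -3185 (RA-diet mutants against RA-diet controls), -8355 (RA-diet mutants against controls), -2363 (genotype) and -6178 (diet, exact permutation p = 0.0358, adjusted p = 0.254). With scores of at least 10 they were, in the same order, -2408, -3890, -3967, -2485, -6375, -2453 and -3930. For mutants on against off the diet the difference was 35.8 with fewer summits (0.5 of each matched list), 6.83 chained at 100 bp and 76.4 with at least 4 libraries. For RA-diet mutants against RA-diet controls it was -26.7 chained at 100 bp, -58.0 with at least 4 libraries and -10.5 beyond 50 kb. Leaving out 1 library gave -270 to 194 and -90.2 to 244 for these contrasts and -6.97 to 212 for the diet, where the lowest was without mutant 1. The cause was not tested. Replicate numbers did not pair the libraries (same-number correlations -0.242 to 0.147, 5 of 19 closest to their own number). A replicate block gave 203 for mutants on against off the diet and changed no other call or sign, with a lowest adjusted p = 0.583 over the contrasts (exact permutation). For the remote share of deposited summits, 8 of 107 values turned sign: with the matched best summits it was 0.925 (controls on against off the diet), 0.577 (RA-diet mutants against RA-diet controls), 1.502 (RA-diet mutants against controls), 1.11 (genotype) and 0.269 (diet) points, and leaving out 1 library gave -0.100 to 1.10 for mutants against controls and -0.668 to 0.229 for genotype. The 128 alternatives of the test per region each kept 0 remote regions. Depth and the unequal lists limit what can be called absent.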
